A study of Mus musculus with 2 samples.

Results

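The 8 genes described here are long RNAs that make no protein: Gas5, Snhg1, Snhg5, Snhg6, Snhg8 and Snhg12, which carry small nucleolar RNAs (snoRNAs) in their introns, and Neat1 and Malat1, which are known to stay in the nucleus. They were taken by gene symbol from a given list, and all 8 were found among the 32227 genes counted. The data are single-cell RNA sequencing of the Meta4 line of dysplastic organoids, grown from the corpus of the mouse stomach, which had been given pyrvinium or its solvent DMSO for 1 day. The cells of both libraries carried a Mist1-CreERT2 transgene and a mutant K-ras transgene behind a lox-stop-lox (LSL) cassette that Cre removes, and both are labelled as induced to dysplasia. Mist1 is active in the chief cells of the stomach, so Cre from its promoter acts in that lineage. Pyrvinium is an anthelmintic drug known to act on Wnt signalling and on mitochondria. There was 1 organoid line and 1 library per treatment, so no difference below has a replicate check, and no test was run.

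Kept as cells were 854 pyrvinium barcodes with at least 13100 counts and 1602 DMSO barcodes with at least 9320 counts. They held 37046673 counts in pyrvinium cells and 39980497 counts in DMSO cells, with medians of 31517 counts per pyrvinium cell and 18592 counts per DMSO cell, so the pyrvinium cells were fewer and deeper. Ribosomal protein genes took 29.9% of the counts of pyrvinium cells and 25.3% of those of DMSO cells, and mitochondrially encoded genes took 1.63% in pyrvinium cells and 2.57% in DMSO cells. The 6 epithelial markers summed to 5499 CPM (counts per 1000000 counts of the library's cells) in pyrvinium cells and 8284 CPM in DMSO cells, with all 6 detected in both. The 6 fibroblast markers summed to 0.81 CPM in pyrvinium cells and 1.03 CPM in DMSO cells. The 6 immune markers summed to 3.46 CPM in pyrvinium cells and 1.68 CPM in DMSO cells, with the macrophage gene Lyz2 at 0 in both libraries. Of the 8 gastric markers, 7 were found by symbol and Gif was not. Tff1 and Tff2 made up nearly all of their sum of 442 CPM in pyrvinium cells and 374 CPM in DMSO cells. The surface mucin Muc5ac was near 0 in both. Cdh5 made up most of the endothelial sum of 60.4 CPM in pyrvinium cells and 44.1 CPM in DMSO cells. No barcode kept as a cell was shared, whereas 12981 of the barcodes of any depth occurred in both libraries.

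A snoRNA host gene is transcribed and spliced like a messenger RNA. The snoRNAs are cut out of its introns and guide chemical changes on ribosomal RNA, while the spliced exons often hold stop codons that send them to nonsense-mediated decay when they are translated. Many host RNAs begin with a run of pyrimidines, the TOP element of ribosomal protein messages, through which translation follows growth signals, and Gas5 (growth arrest-specific 5) was named for its accumulation in cells that stop growing. Neat1 is the scaffold of paraspeckles, and Malat1 collects in nuclear speckles, the stores of splicing factors. The counts below come from capture by poly(A) at the 3′ end and are summed per gene over a whole cell. They were not split by transcript form, so they do not show which form of Neat1 or Malat1 was counted. They do not show where in the cell an RNA lay. The snoRNAs themselves were not analysed here.

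The annotation of the mouse genome by GENCODE (release M21, build GRCm38) was used to check which of the 8 hold snoRNAs. On the same strand it places 10 snoRNA entries inside Gas5 on chromosome 1, 8 inside Snhg1 on chromosome 19, 5 inside Snhg12 on chromosome 4 and 2 inside Snhg5 on chromosome 9. Snhg6 on chromosome 1 and Snhg8 on chromosome 3 hold 1 each, and Neat1 and Malat1, both on chromosome 19, hold 0. The 2 snoRNA sequences below are shown as examples of what the introns carry, 1 from the host with the highest ratio of pyrvinium over DMSO (Snord87, in Snhg6) and 1 from Gas5 (Snord47). They are from the GENCODE transcripts, written as DNA 5′ to 3′. Capitals mark the C box motif TGATGA and the last D box motif CTGA, which together define this snoRNA class.
Snord87: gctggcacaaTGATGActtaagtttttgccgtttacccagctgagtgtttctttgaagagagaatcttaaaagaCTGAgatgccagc
Snord47: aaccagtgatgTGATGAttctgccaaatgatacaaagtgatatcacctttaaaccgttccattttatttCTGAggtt

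RefSeq promoters (build GRCm38.p6) were matched for 6 of the 8 genes, and Neat1 and Snhg6 were not matched. They are shown because the start of the RNA holds the TOP element of such hosts. Each line runs 5′ to 3′ over 100 bases, with 50 before and 50 after the annotated start, and capitals mark the longest run of C and T that touches the 5 bases on either side of the start.
Gas5, chr1:161035116-161035215, plus strand: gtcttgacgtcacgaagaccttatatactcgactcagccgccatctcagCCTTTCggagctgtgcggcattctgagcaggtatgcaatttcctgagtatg
Snhg1, chr19:8723437-8723536, plus strand: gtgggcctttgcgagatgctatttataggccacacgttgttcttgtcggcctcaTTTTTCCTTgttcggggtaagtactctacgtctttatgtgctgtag
Snhg5, chr9:88522848-88522947, minus strand: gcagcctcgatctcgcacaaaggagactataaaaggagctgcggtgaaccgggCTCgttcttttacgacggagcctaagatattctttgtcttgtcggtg
Snhg8, chr3:123508287-123508386, minus strand: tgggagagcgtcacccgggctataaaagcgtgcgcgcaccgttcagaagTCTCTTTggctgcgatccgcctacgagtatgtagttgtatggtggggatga
Snhg12, chr4:132308628-132308727, plus strand: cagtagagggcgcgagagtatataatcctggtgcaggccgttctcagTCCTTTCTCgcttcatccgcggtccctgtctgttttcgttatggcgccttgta
Malat1, chr19:5802623-5802722, minus strand: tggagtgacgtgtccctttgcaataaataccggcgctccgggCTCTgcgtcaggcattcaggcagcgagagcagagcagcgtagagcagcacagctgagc

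The pyrimidine run so marked was 9 bases long in Snhg1 and Snhg12, 7 in Snhg8, 6 in Gas5 and 3 in Snhg5, against 4 in Malat1. Not all of these runs begin at the annotated start, so their lengths are not those of a TOP element. That of Snhg1 began at base 5 of the RNA, and that of Malat1 began 8 bases before the start and ended before it. In Snhg5 a longer run of C and T follows shortly after the marked one, too far from the start to be counted. Over all 32851 RefSeq promoters the median run was 3 bases and 21% had a run of at least 6, a length reached by 44.3% of 79 promoters of cytosolic ribosomal protein genes. The second Gas5 entry is shown, because 14 annotated Gas5 transcripts start within 50 bases of it and 1 starts near the other entry. The letters TATAA, searched on both strands of the 300 bases from 250 before to 50 after the start, were present in all 5 host promoters and not in that of Malat1, and 24.9% of all promoters held them. The motif TGACGTCA was found in Gas5 alone of the 6, against 1.79% of all promoters. TGATGNAA was found in 0 of the 6 and 3.97% of all promoters, and CACGTG in 0 of the 6 and 7.15%. None of these motifs contains another, and a match says only that these letters are there.

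In sum, the 8 RNAs made up 3006 CPM in pyrvinium cells and 2297 CPM in DMSO cells. Snhg6 and Neat1 were at least 1.5-fold higher in pyrvinium cells, Malat1 was at least 1.5-fold lower, and the other 5 lay between these limits. A gene was counted as higher or lower when the fold between the libraries was at least 1.5 and the exact 95% interval of its ratio, which covers counting error only, lay on that side of 1. By this rule 2 of the 8 were higher, where 7.57% of the 15586 genes with at least 20 counts were higher, and 1 of the 8 was lower, where 15.5% were lower. Of the 6846 genes that reached 10 CPM in a library, 6.34% were higher and 14.9% lower, and of the 143 long noncoding genes among them 18.9% were higher and 23.8% lower, so the counts for so few genes are not read as particular to them. The median log2 ratio of pyrvinium over DMSO was 0.42 for the 8 genes, as it was for the 6 hosts alone, against -0.08 for all genes and 0.04 for long noncoding genes that reached 10 CPM. The ratio was above 1 for 5 of the 6 hosts. Snhg5 was among these 5, with a log2 ratio of 0.04 and an interval of -0.04 to 0.13 that held 0. Without the 5% of cells with the most counts, 4 hosts had a ratio above 1. It was also 4 hosts when RNA outside cells, estimated at 10 to 100 counts per barcode, was subtracted. The share of all genes with a ratio above 1 is not given here.

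**Figure D1:**
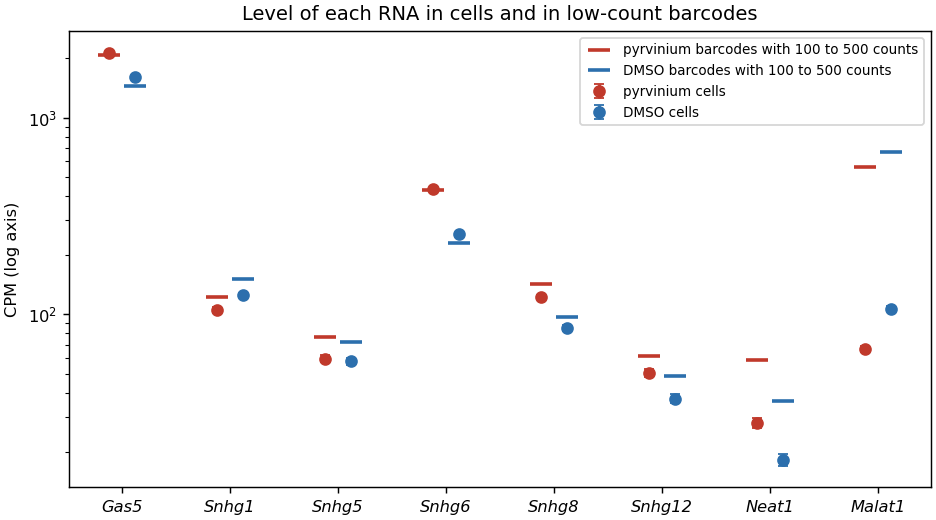
Level of each of the 8 RNAs in CPM (log axis), with pyrvinium in red left of DMSO in blue. Dots are the summed kept cells with exact Poisson 95% intervals and short bars are barcodes with 100 to 500 counts. Malat1 stands apart: its bars lie at 564 CPM for pyrvinium and 665 CPM for DMSO, far above its dots at 66.6 CPM for pyrvinium and 107 CPM for DMSO.

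Among the hosts, Gas5 (ENSMUSG00000053332) reached 2140 CPM in pyrvinium cells (95% interval 2125 to 2155) and 1612 CPM in DMSO cells (1600 to 1624). The log2 ratio was 0.41 (0.39 to 0.42), a level 1.33-fold higher in pyrvinium cells and under the 1.5-fold limit. The intervals of the libraries lay far apart, as counting error is small at 79292 counts in pyrvinium cells and 64446 in DMSO cells. Thinned at random to 5000 counts per cell, a pyrvinium cell had a median of 10 Gas5 counts (quartiles 8 to 13) and a DMSO cell a median of 7 (5 to 10), so the quartile ranges overlapped. The spread between cells was wider in DMSO: the variance over the mean was 2.03 in pyrvinium cells and 2.98 in DMSO cells, and the highest cell had 34 counts in pyrvinium and 63 in DMSO. In the GENCODE annotation Gas5 overlaps the zinc finger gene Zbtb37 on the opposite strand, which was at 1.03 CPM in pyrvinium cells and 1.05 CPM in DMSO cells.

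Snhg6 (ENSMUSG00000098234) had the highest ratio of the 8. It was at 432 CPM in pyrvinium cells (426 to 439) and 255 CPM in DMSO cells (250 to 260), and the log2 ratio of 0.76 (0.73 to 0.80) is 1.7-fold higher. The RNA carries Snord87 alone and has been studied as a growth-promoting RNA in human tumour lines. Thinned to 5000 counts, a pyrvinium cell had a median of 2 Snhg6 counts (quartiles 1 to 3) and a DMSO cell a median of 1 (0 to 2). The gene overlaps Mcmdc2 on the opposite strand in the annotation, and whether the counting used strand is not given in the sources used here.

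Snhg8 and Snhg12 were higher in pyrvinium cells by less than the 1.5-fold limit. Snhg8 (ENSMUSG00000104960), the host of the H/ACA snoRNA Snora24, was at 123 CPM in pyrvinium cells (119 to 126) and 85 CPM in DMSO cells (82.1 to 87.9), a log2 ratio of 0.53 (0.46 to 0.59). Snhg12 (ENSMUSG00000086290), which holds Snora16a, Snora44, Snora61 and Snord99, was at 50.6 CPM in pyrvinium cells (48.3 to 53) and 37.3 CPM in DMSO cells (35.4 to 39.2), a log2 ratio of 0.44 (0.34 to 0.54). The interval of Snhg8 reached the 1.5-fold limit, and that of Snhg12 stayed under it.

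Snhg1 lay in the other direction, and Snhg5 was near equal in both libraries. Snhg1 (ENSMUSG00000108414), the host of Snord22 and of 7 other snoRNA entries, was at 105 CPM in pyrvinium cells (102 to 109) and 125 CPM in DMSO cells (122 to 129), a log2 ratio of -0.24 (-0.31 to -0.18). Snhg5 (ENSMUSG00000097195), the host of Snord50a and Snord50b, was at 59.5 CPM in pyrvinium cells (57.1 to 62.1) and 57.8 CPM in DMSO cells (55.4 to 60.2). Its log2 ratio was 0.04, and the interval of -0.04 to 0.13 held 0. The start of Snhg1 lies 106 bases from that of Slc3a2 on the opposite strand, the heavy chain of several amino acid transporters. Slc3a2 was at 414 CPM in pyrvinium cells and 172 CPM in DMSO cells, a log2 ratio of 1.27 (1.23 to 1.31), so these neighbours differed in opposite directions.

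Over all kept cells the nuclear RNAs lay on opposite sides. Neat1 (ENSMUSG00000092274) was at 27.9 CPM in pyrvinium cells (26.3 to 29.7) and 18.2 CPM in DMSO cells (16.9 to 19.6), a log2 ratio of 0.62 (0.48 to 0.75) or 1.53-fold higher. Its fold was just past the limit, and the interval reached below it. Malat1 (ENSMUSG00000092341) was at 66.6 CPM in pyrvinium cells (64 to 69.3) and 107 CPM in DMSO cells (104 to 110), a log2 ratio of -0.68 (-0.75 to -0.61), so the level in DMSO cells was 1.6 times that in pyrvinium cells. Malat1 lost the call in cells of 13100 to 40000 counts, at -0.43, a range within which depth was not matched. It also lost the call with equal weight for clusters 1 and 3 alone (described below), at -0.18. Its log2 ratio was -1.98 after subtracting 10% free RNA in the profile of 100 to 500 counts. Neat1 lost the call after subtracting the profile of 10 to 100 counts, at 0.50. Frmd8os, a noncoding gene that starts 145 bases from Neat1 on the opposite strand, was at 1.89 CPM in pyrvinium cells and 2.08 CPM in DMSO cells.

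The share of cells with at least 1 count was taken after thinning, since the unthinned share follows depth. Snhg6 was found in 87.6% of pyrvinium cells (95% Clopper-Pearson interval 85.2 to 89.7) and 68.6% of DMSO cells (66.3 to 70.9). Snhg8 was found in 47.8% of pyrvinium cells (44.4 to 51.2) and 33% of DMSO cells (30.7 to 35.4), and Snhg12 in 23% of pyrvinium cells (20.2 to 25.9) and 16% of DMSO cells (14.2 to 17.9). For these 3 hosts the intervals of the libraries did not overlap, and the pyrvinium share was the higher. The intervals of Snhg1 and Malat1 (below) also did not overlap, with the DMSO share the higher. These intervals treat the cells of a library as independent draws, and the same count over all genes was not made. Gas5 was in all 854 pyrvinium cells and in 99.6% of DMSO cells, so its share carries little information at this depth. Snhg1 was in 38.9% of pyrvinium cells (35.6 to 42.2) and 44.8% of DMSO cells (42.4 to 47.3), and Snhg5 in 24.8% of pyrvinium cells (22 to 27.9) and 23.7% of DMSO cells (21.7 to 25.9). Neat1 was in 12.3% of pyrvinium cells (10.2 to 14.7) and 9.36% of DMSO cells (7.98 to 10.9), intervals that overlap. Malat1 was in 27.4% of pyrvinium cells (24.4 to 30.5) and 39.3% of DMSO cells (36.9 to 41.8). Without thinning the Malat1 shares were 80.2% in pyrvinium cells and 75.2% in DMSO cells, the opposite order, with the deeper cells in the pyrvinium library.

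Taking the hosts together, a cell thinned to 5000 counts held a median of 14 counts of the 6 host RNAs in pyrvinium (quartiles 10.2 to 18) and 10 in DMSO (7 to 14). Without Gas5 the medians were 4 counts per pyrvinium cell (2 to 5) and 2 counts per DMSO cell (1 to 4).

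Barcodes with 100 to 500 counts, 52181 in the pyrvinium library and 48342 in the DMSO library, held 23.7% of all pyrvinium counts and 20% of all DMSO counts and were taken as a profile of RNA outside cells, though whether they hold free RNA, nuclei or debris is not known. If such RNA made up 10% of a thinned cell, an assumed share, it alone would give Malat1 to 24.6% of pyrvinium cells and 28.3% of DMSO cells. The interval of the measured Malat1 share in pyrvinium cells reaches down to 24.4% and so holds that background, while the share in DMSO cells was above it. This turns on the profile: barcodes with 10 to 99 counts had Malat1 at 225 CPM in pyrvinium and 181 CPM in DMSO, which would give a lower background. The cluster with the lowest Malat1 share had 19.5% in the pyrvinium library and 31.3% in the DMSO library, so in pyrvinium it was under the background that the assumed 10% gives. For Snhg6 the same background was 19.3% in pyrvinium cells and 10.9% in DMSO cells, for Gas5 it was 64.5% in pyrvinium cells and 51.4% in DMSO cells, and for the other 5 RNAs it was at most 6.89% in pyrvinium cells and 7.31% in DMSO cells. Each of these lay well below the measured share.

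Malat1 had the highest ratio of the 8 RNAs between barcodes of 100 to 500 counts and cells. At 564 CPM in pyrvinium barcodes of 100 to 500 counts it was 8.46 times its level in pyrvinium cells, and at 665 CPM in DMSO barcodes it was 6.23 times its level in DMSO cells. In barcodes with 10 to 99 counts its level was lower, at 225 CPM in pyrvinium and 181 CPM in DMSO, and still above that in cells. By the log2 ratio of barcodes with 100 to 500 counts over cells it was at rank 1 of 11050 genes in the pyrvinium library, with 3.08, and was at rank 3 of 11267 in the DMSO library, with 2.64, behind Enpp2 and Adcy8. The median of all genes was 0.18 in pyrvinium and 0.21 in DMSO. Neat1 followed in the same direction at 1.07 in pyrvinium (rank 35) and 0.98 in DMSO (rank 89). The hosts lay between -0.05 and 0.37 in pyrvinium and between -0.16 and 0.38 in DMSO. Gas5 was low in this order, at rank 9085 in pyrvinium and 10095 in DMSO, as was Snhg6, at rank 8681 in pyrvinium and 10009 in DMSO.

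**Figure D2:**
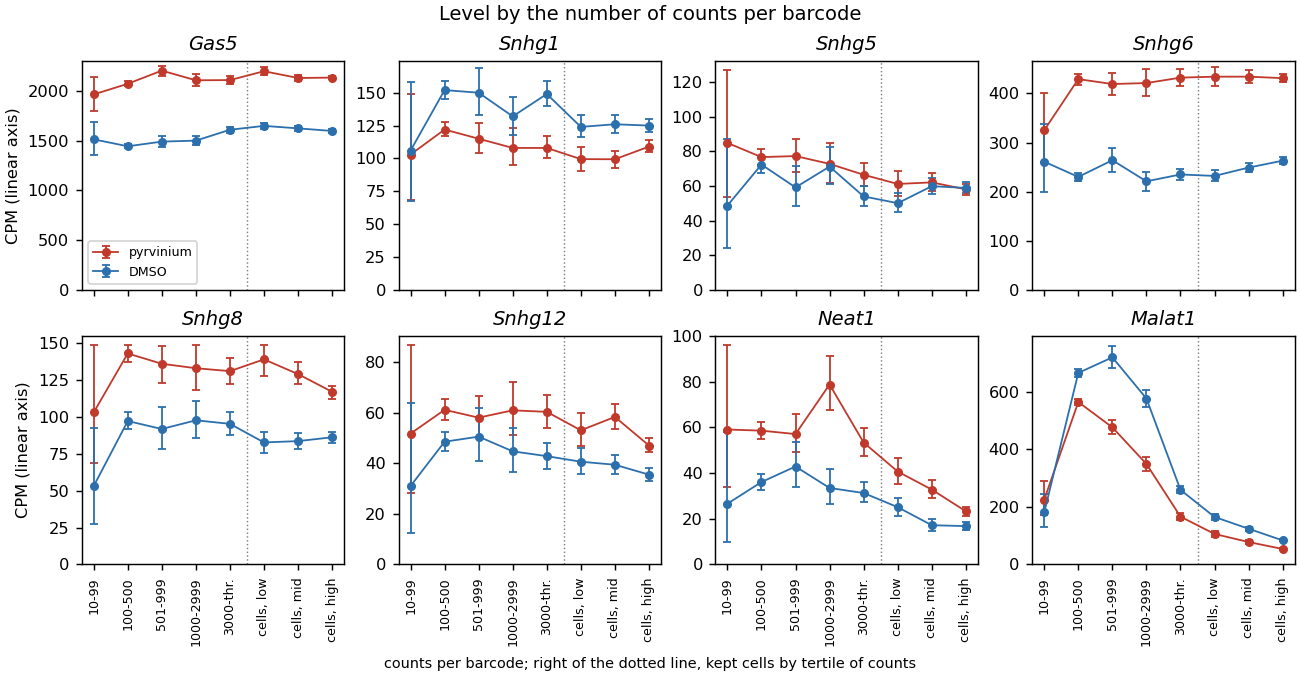
Level of each RNA (CPM, linear axis from 0, its own scale in each panel) against the number of counts per barcode, with pyrvinium in red and DMSO in blue, and exact Poisson 95% intervals. Points right of the dotted line are tertiles of the kept cells by count. Malat1 lies at 106, 77.9 and 53.8 CPM over the tertiles of pyrvinium cells and at 165, 124 and 83.6 CPM over those of DMSO cells, while Gas5 and Snhg6 are nearly level.

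Within the kept cells Malat1 also went down with depth. It was at 106, 77.9 and 53.8 CPM in the lowest, middle and highest tertile of pyrvinium cells by count, and at 165, 124 and 83.6 CPM in the same tertiles of DMSO cells. Neat1 was at 40.7, 32.8 and 23.3 CPM over the tertiles of pyrvinium cells and at 25.1, 17.2 and 16.8 CPM over those of DMSO cells. In each of these tertiles Malat1 was lower and Neat1 higher in the pyrvinium library, though the tertiles of the libraries differ in depth. When both libraries were held to 515 pyrvinium cells and 985 DMSO cells between 13100 and 40000 counts, the log2 ratio of Malat1 was -0.43, no longer past the 1.5-fold limit, and that of Neat1 was 0.98. Snhg6 showed no such slope: it was at 434, 434 and 431 CPM in the tertiles of pyrvinium cells and at 232, 249 and 263 CPM in the tertiles of DMSO cells. Gas5 was at 2197, 2129 and 2133 CPM in the tertiles of pyrvinium cells and at 1648, 1623 and 1597 CPM in those of DMSO cells.

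The kept cells fell into 5 clusters when grouped on 2000 variable genes that left out the 8 RNAs. Cluster 1 held 438 pyrvinium cells and 102 DMSO cells and was led by Cnfn and Ly6c1, and cluster 3 held 131 pyrvinium cells and 662 DMSO cells and was led by the mitosis genes Cdc20, Ccnb1, Birc5 and Ube2c. Cluster 4 (262 pyrvinium and 6 DMSO cells, led by Cldn2 and Thbs1), cluster 2 (7 pyrvinium and 372 DMSO cells, with Ndrg1 and Ero1a among its leading genes) and cluster 5 (16 pyrvinium and 460 DMSO cells, led by Itln1 and Ifitm1) were nearly all of 1 library. Such a cluster may be the library rather than a kind of cell, and none was given a cell type name. Levels can be set side by side only in clusters 1 and 3, and no level was computed where a library had fewer than 30 cells in a cluster.

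**Figure D3:**
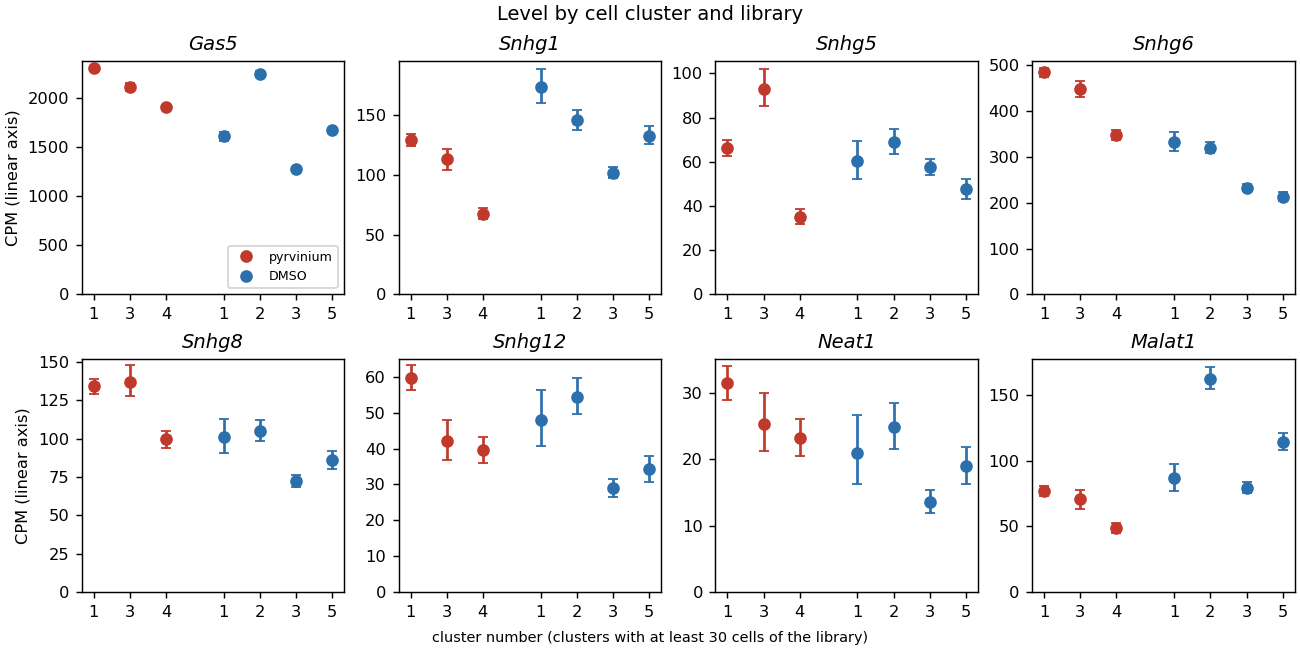
Level of each RNA (CPM, linear axis from 0, its own scale in each panel) by cluster, with pyrvinium clusters 1, 3 and 4 in red on the left and DMSO clusters 1, 2, 3 and 5 in blue on the right, and exact Poisson 95% intervals. In every panel the pyrvinium value of cluster 4 is the lowest of the 3 red points, with Gas5 at 1908 CPM and Malat1 at 48.5 CPM.

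In the pyrvinium library each of the 8 RNAs was lowest in cluster 4, and how many of all genes were lowest there was not counted. The pyrvinium cells of cluster 4 were also the deepest, with a median of 36570 counts against 29984 in cluster 1 and 28055 in cluster 3. The part of depth in these orders was not tested. Gas5 was at 1908 CPM in cluster 4, 2113 CPM in cluster 3 and 2301 CPM in cluster 1, with no overlap between the intervals. Snhg5 had the largest fold between clusters of the 8, at 2.65, with 35.1 CPM in cluster 4, 66.1 CPM in cluster 1 and 93 CPM in cluster 3. Snhg1 was at 67.4, 113 and 129 CPM in clusters 4, 3 and 1. Snhg6 had the same order, at 347, 447 and 484 CPM. The intervals overlapped between clusters 1 and 3 for Snhg8 (137 CPM in cluster 3 and 134 CPM in cluster 1) and Malat1 (70.4 and 76.8 CPM), between clusters 4 and 3 for Snhg12 (39.5 and 42.1 CPM) and between both neighbouring pairs for Neat1, at 23.2, 25.3 and 31.4 CPM in clusters 4, 3 and 1.

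In the DMSO library the mitosis-led cluster 3 was the lowest for 6 of the 8 RNAs, and cluster 5 for Snhg5 and Snhg6. Cluster 2 was the highest for 6, and cluster 1 for Snhg1 and Snhg6. The same counts over all genes were not made. The intervals of clusters 1 and 2 overlapped for Snhg5, Snhg6, Snhg8, Snhg12 and Neat1, so cluster 2 stood clear of the others for Gas5 and Malat1 alone. Gas5 was at 1278 CPM in cluster 3, 1609 CPM in cluster 1, 1673 CPM in cluster 5 and 2248 CPM in cluster 2, where the intervals of clusters 1 and 5 overlapped. Malat1 was at 79.3 CPM in cluster 3, 86.9 CPM in cluster 1, 114 CPM in cluster 5 and 162 CPM in cluster 2. Snhg12 ranged between 29 CPM in cluster 3 and 54.5 CPM in cluster 2, and Neat1 between 13.5 and 24.9 CPM in the same clusters. Cluster 2 of the DMSO library thus had Gas5 close to the 2301 CPM of cluster 1 in the pyrvinium library.

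Set side by side within cluster 3, 5 of the 8 RNAs were at least 1.5-fold higher in pyrvinium cells, where 10.2% of the 12697 genes counted there were higher, and 0 were lower, where 17% were lower. Gas5 was at 2113 CPM in pyrvinium cells and 1278 CPM in DMSO cells of this cluster, a log2 ratio of 0.73 (0.69 to 0.76). Snhg6 had a log2 ratio of 0.94 (0.87 to 1.02), Snhg8 of 0.93 (0.79 to 1.06), Snhg5 of 0.69 (0.54 to 0.85) and Neat1 of 0.90 (0.59 to 1.21). Snhg5, whose level over all cells was alike in both libraries, was at 93 CPM in pyrvinium cells and 57.5 CPM in DMSO cells here. Within cluster 1, 0 of the 8 were past the limit, where 6.28% of 12568 genes were higher and 23.8% lower. The log2 ratios in cluster 1 were 0.52 for Gas5 (0.47 to 0.56), 0.54 for Snhg6 (0.45 to 0.63) and 0.58 for Neat1 (0.22 to 0.97). Snhg1 was lower in the pyrvinium cells of cluster 1, with a log2 ratio of -0.44 (-0.57 to -0.30), and slightly higher in those of cluster 3, with 0.14 (0.01 to 0.27).

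Malat1 did not keep its difference within the clusters. Its log2 ratio was -0.18 in cluster 1 (-0.36 to 0.01) and -0.17 in cluster 3 (-0.34 to -0.01), against -0.68 over all cells. With equal weight for these clusters it was -0.18, the same as the median of all genes under that weighting. The share of the DMSO cells that lay in cluster 2, where Malat1 was at 162 CPM, was 23.2%, and cluster 4, where it was at 48.5 CPM, held 30.7% of the pyrvinium cells. The median depth was 36570 counts in the pyrvinium cells of cluster 4 and 17676 counts in the DMSO cells of cluster 2. The part of depth in these levels was not tested, and neither was that of the mix of clusters in the difference over all cells. The ratios of Gas5, Snhg6, Snhg8, Snhg12 and Neat1 were above 1 in both clusters, though none of the 5 passed the 1.5-fold limit in cluster 1 and Snhg12 did not in cluster 3.

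**Figure D4:**
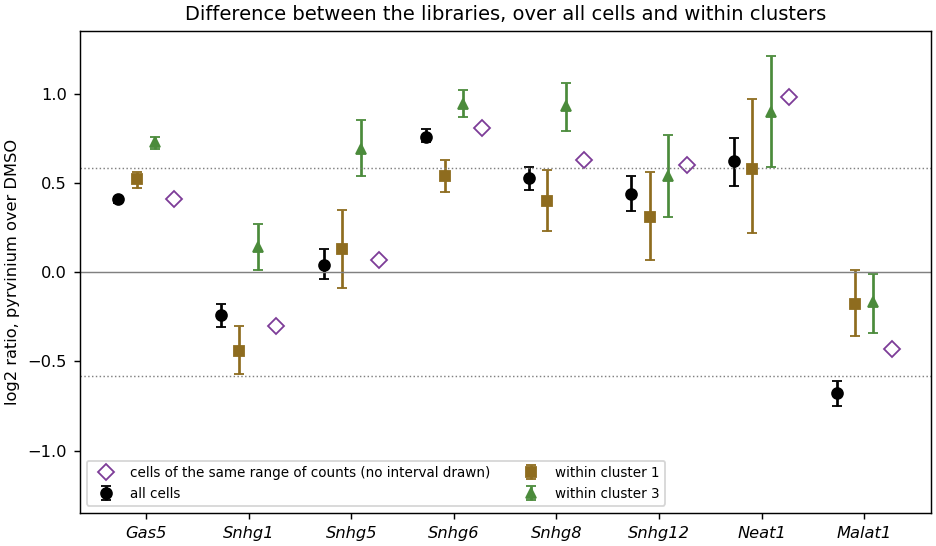
Log2 ratio of pyrvinium over DMSO for each RNA over all kept cells (black), within cluster 1 (brown) and within cluster 3 (green), with exact 95% intervals for counting error. Open diamonds are cells of 13100 to 40000 counts in both libraries, with no interval drawn and depth not matched within that range. Dotted lines mark the 1.5-fold limits. Malat1 is at -0.68 over all cells and at -0.18 and -0.17 within the clusters, and Snhg6 is above 0.5 in every setting.

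Rank correlations from cell to cell were weak at 5000 counts per cell. Over the 28 pairs, Spearman's rho had a median of 0.04 over the 854 pyrvinium cells and 0.04 over the 1602 DMSO cells, and in both libraries the highest pair was Gas5 with Snhg6, at 0.23 in pyrvinium and 0.11 in DMSO. Apart from Gas5, most of these counts are 0 to 2 per cell, so weak values are no finding and do not show that the RNAs vary independently. Neat1 and Malat1 had a rho of 0.00 in pyrvinium cells and 0.08 in DMSO cells. Gas5 had a rho with the share of a cell's counts from ribosomal protein genes of 0.41 in pyrvinium cells and 0.26 in DMSO cells, and its rho with the mitochondrial share was -0.22 in pyrvinium cells and -0.12 in DMSO cells. The genes most like Gas5 over cells, among 1968 searched, were Rps19 (rho 0.40 in pyrvinium and 0.46 in DMSO), the noncoding gene 2410006H16Rik (0.32 in pyrvinium and 0.45 in DMSO) and Rpl32 (0.38 in pyrvinium and 0.36 in DMSO). Rps19 and Rpl32 code for proteins of the small and the large ribosomal subunit. No gene reached a rho of 0.2 in both libraries with any of the other 4 members searched, which were Snhg1, Snhg6, Snhg8 and Malat1.

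Genes of the same pathways were counted by the same 1.5-fold rule. Of 14 other long noncoding snoRNA hosts, 2 were higher and 4 lower in pyrvinium cells, with a median log2 ratio of -0.09 and sums of 1134 CPM in pyrvinium cells and 1130 CPM in DMSO cells. The median of the 6 hosts described here was 0.42. Over all 1808 long noncoding genes, 10.8% were higher and 15.4% lower. Snhg17 was at 7.23 CPM in pyrvinium cells and 14.5 CPM in DMSO cells, and Snhg3 at 56.7 CPM in pyrvinium cells and 87.2 CPM in DMSO cells. Dancr was also lower, at 14 CPM in pyrvinium cells and 21.5 CPM in DMSO cells. Snhg20 lay the other way, at 26.9 CPM in pyrvinium cells and 19.5 CPM in DMSO cells, a log2 ratio of 0.47 under the limit, and 7 of the 14 ratios were above 1. The 2 that were higher, Snhg11 and Rian, were under 1 CPM in both libraries.

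Hosts that code for proteins were counted in 2 lists. Of 20 ribosomal protein genes that carry snoRNAs, 0 passed the limit, but 18 had a ratio above 1, and their median log2 ratio was 0.26, close to the 0.25 of all 84 cytosolic ribosomal protein genes measured. Rpl12 was at 1916 CPM in pyrvinium cells and 1439 CPM in DMSO cells, a log2 ratio of 0.41, and Rps20 at 2675 CPM in pyrvinium cells and 2015 CPM in DMSO cells, also 0.41. These equal the ratio of Gas5, but they were named for having the largest ratios of this list, whose median lay below that of Gas5. Of 16 other protein-coding hosts, 6 were lower and 0 higher, against 15.5% lower and 7.57% higher over all genes, and the median was -0.11. They included Nop56, itself a core protein of box C/D snoRNPs, at 70.8 CPM in pyrvinium cells and 140 CPM in DMSO cells, and the chaperone gene Hspa8, at 593 CPM in pyrvinium cells and 1107 CPM in DMSO cells.

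Genes for the proteins that bind and assemble snoRNAs lay on the lower side. Of 16 snoRNP core and assembly genes, 9 were lower and 0 higher in pyrvinium cells, where 15.5% of all genes were lower, and the median log2 ratio was -0.74, with 15 ratios below 1. Dkc1, the pseudouridine synthase of box H/ACA snoRNPs, was at 14.8 CPM in pyrvinium cells and 31.6 CPM in DMSO cells, a log2 ratio of -1.09 (-1.24 to -0.95). Nolc1, a nucleolar chaperone of snoRNPs, was at 19.4 CPM in pyrvinium cells and 39 CPM in DMSO cells, and Ruvbl1, an ATPase of their assembly, at 25.7 CPM in pyrvinium cells and 51.4 CPM in DMSO cells. Of 16 factors of nonsense-mediated decay, 0 passed the limit in either direction and the median was -0.24. Of those reaching 10 CPM, the one farthest from equal was Eif4a3, a core of the exon junction complex, at 58.4 CPM in pyrvinium cells and 84.8 CPM in DMSO cells, a log2 ratio of -0.54.

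Proteins of the bodies that Neat1 and Malat1 belong to were counted in the same way. Of 16 paraspeckle proteins, 5 were lower and 0 higher, against 15.5% lower and 7.57% higher over all genes, and the median log2 ratio was -0.37. The 5 became 3 when counts were scaled by the median of ratios, or without mitochondrial and ribosomal protein genes. Sfpq, which paraspeckles need to form, was at 22.5 CPM in pyrvinium cells and 53.4 CPM in DMSO cells, a log2 ratio of -1.25 (-1.37 to -1.13). Neat1, at 0.62, lay in the other direction. Of 16 nuclear speckle proteins, 6 were lower and 0 higher, against the same shares over all genes, and the median was -0.46. Srsf2, a splicing factor that marks speckles, was at 27.7 CPM in pyrvinium cells and 78.5 CPM in DMSO cells, a log2 ratio of -1.50 (-1.60 to -1.40), and Srsf5 was at 53.4 CPM in pyrvinium cells and 134 CPM in DMSO cells, a log2 ratio of -1.32. Malat1, at -0.68, lay in the same direction. A further list was drawn up as other nuclear or chromatin-associated long RNAs, but where in a cell each of them lies was not checked. Of the 11 measured, 1 was higher and 3 lower, against 10.8% higher and 15.4% lower of all long noncoding genes. The median was -0.27, with 10 ratios below 1. Among genes with at least 100 counts, 0 were higher and 2 lower. Oip5os1, the mouse Cyrano RNA, was at 22.3 CPM in pyrvinium cells and 34.8 CPM in DMSO cells.

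**Figure D5:**
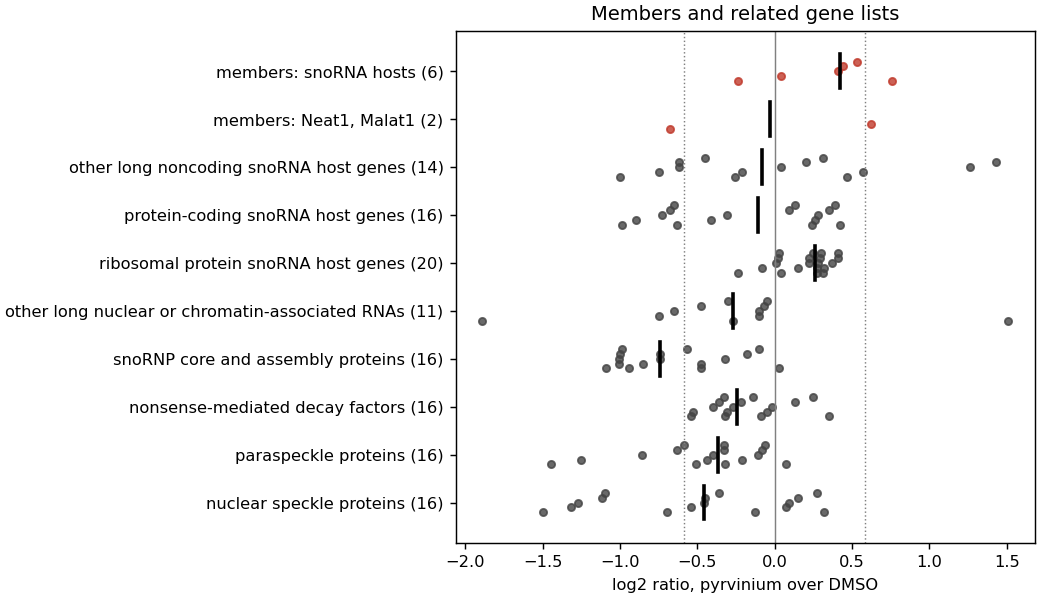
Log2 ratio of pyrvinium over DMSO for the 6 host RNAs and for Neat1 and Malat1 (red) and for the members of 8 related gene lists (grey), 1 dot per gene, with the number of genes in parentheses. Black bars are medians and dotted lines the 1.5-fold limits. The 6 hosts have a median of 0.42, ribosomal protein hosts 0.26 and snoRNP proteins -0.74.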

How the data were processed

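The deposited files of each library hold whole-number counts per gene and barcode, not normalized. Cells were captured and made into libraries with the PIPseq method of Fluent BioSciences, per the labels' protocols, and Partek and the mouse build GRCm39 were used, per the submitters' processing notes. The counting tool, annotation and strand setting, and any treatment of doublets, were not given in the sources used here; whether a count is a molecule is not stated. The 8 genes and all gene lists were chosen with earlier results of these data known.

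Barcodes counted as cells where their count reached a 10th of that at percentile 99 among their library's 2000 deepest barcodes. The kept cells had at least 1824 genes, and 0 of them had over 20% mitochondrial counts. Doublets were not removed; leaving out the 5% of cells with the most counts is an alternative. Counts were summed over cells and scaled to CPM, with exact Poisson 95% intervals and exact conditional binomial intervals of the ratio; a gene with 0 counts was set against a floor of 3 counts. Cells are not replicates, so these single libraries allowed no test. Shares were taken after random thinning to 5000 counts, which every kept cell reached. Clusters used 2000 variable genes without the 8 RNAs, z-scored within each library, 30 principal components, 15 neighbours and the Leiden algorithm at resolution 0.5 (scanpy 1.11.5, igraph 0.11.9), and were rebuilt here, so they may differ from the study's. Alternatives covered the cell threshold, scaling, weighting, free RNA, composition and thinning depth. The ratio and interval script was checked on simulated counts.

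Named besides the 8 are up to 4 genes per list with the largest absolute ratio among those reaching 10 CPM, genes starting within 5000 bases of a member, and up to 3 genes per member of at least 100 CPM with the highest mean rho. Not every gene so taken is reported here, and Snhg11 and Rian were named after their values were seen. Sequences are from RefSeq promoters and GENCODE M21 transcripts of build GRCm38, so no position was taken across to GRCm39.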

Additional observations from a re-analysis of the deposited data

How the results depend on the processing

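Each ratio was recomputed under 11 alternatives. Snhg6 stayed at least 1.5-fold higher in all 11 (log2 ratio 0.72 to 0.85), Neat1 in 10 (0.50 to 0.98, the lowest and not past the limit after subtracting free RNA of 10 to 100 counts per barcode), Snhg8 passed the limit in 5 (0.50 to 0.64), and Gas5 (0.40 to 0.61) and Snhg12 (0.40 to 0.60) in 1 each. Snhg1 was below 0 in all (-0.30 to -0.16) and Snhg5 above 0 in 9 (-0.06 to 0.43). Malat1 was lower by the limit in 9, with a range of -1.98 (after subtracting the profile of barcodes with 100 to 500 counts) to -0.18 (clusters weighted equally). Malat1 lost the call with clusters 1 and 3 weighted equally and in cells of 13100 to 40000 counts (-0.43). Depth was not matched within that range. The number of the 8 RNAs that were higher, 2 as reported, was 4 in cells of 13100 to 40000 counts. It was 4 with clusters 1 and 3 weighted equally and 1 after subtracting free RNA as seen in barcodes of 10 to 100 counts. The number that were lower, 1 as reported, was 0 in cells of 13100 to 40000 counts and 0 with clusters 1 and 3 weighted equally. The cause was not tested. Over the gene lists, 23 recomputed counts moved by more than 1.5 times; many of the others were 0 throughout and show no stability. The median of all genes was 0.00 when scaled by the median of ratios and -0.18 with clusters 1 and 3 weighted equally, against -0.08 as reported. Of 64 recomputed shares 35 moved beyond their interval, most of them with no thinning or thinning to 9000 counts. No paired analysis was possible because each treatment had 1 library. The intervals cover counting error only, Neat1 rests on 1035 counts in pyrvinium cells and 729 in DMSO cells, and culture, capture and library cannot be told apart from treatment.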
